A study of Sus scrofa with 3 samples.

Results

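Cholesterol is built from acetyl-CoA in a long chain of reactions that runs through mevalonate and squalene. Most cells can run this chain, and they tune it to their sterol supply through the SREBP transcription factors, which raise the genes of nearly every step when membrane sterol is low. Adipocytes hold a store of cholesterol in the membranes and on the surface of the lipid droplet. Their own synthesis is usually modest beside that of liver. In this study 7 enzymes of the chain were followed in visceral adipose tissue of miniature pigs. They were HMGCS1, IDI1 and FDPS of the mevalonate part, FDFT1 at the branch towards sterols, and SQLE, LSS and DHCR7 of the sterol part. They were picked by name, with earlier results of these data known, and all 7 were found among the 22826 mRNA genes of the deposited values. Of these, 5 were listed by symbol. LSS was listed as LOC100625138 and DHCR7 as LOC100627707, and both were matched by gene ID to the RefSeq gene table.

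The pigs were male Chinese Wuzhishan miniature pigs, 6 to 7 months old when obtained. They were first acclimated on a standard diet without cholesterol. All 3 groups were then kept for 12 weeks on an HFC diet, rich in fat and cholesterol. IM pigs were intact males that received skin incisions only, CM pigs were castrated males, and CMT pigs were castrated males given 10 mg/kg testosterone propionate by injection each week. The tissue was retroperitoneal fat. RNA of the pigs of a group was pooled (4 pigs by the study's methods, 4 to 6 by the sample labels), and 1 library per group was sequenced, so no difference below has a replicate check. No group on a normal diet was part of the design, and dietary cholesterol was therefore shared by every library.

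Levels are given in UQRPKM, reads per kilobase of gene scaled by the upper quartile of reads per gene in the library. They can be compared between libraries. A comparison between genes also rests on the gene lengths behind the values, which were not checked. The reads behind each value were recovered from the values, and over all genes the IM, CM and CMT libraries held 16611931, 15561124 and 15106608 of them. Intervals are exact 95% intervals from these reads. They cover counting error only, and they treat each read as an independent molecule. Amplified reads are not, so the intervals can be too narrow even for that error. They say nothing of the spread between pigs. A gene was tested where each library of a pair held at least 1 UQRPKM, and it was called higher or lower from a fold of 1.5 upwards. The libraries also differed in transcripts of other tissues, with hepatocyte genes such as ALB abundant in CM and skeletal muscle genes such as ACTA1 in CMT, and their values are given after those of the enzymes.

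Of the 7 enzymes, only IDI1 differed by 1.5-fold or more between any of the 3 libraries. IDI1 was lower in CM than in both IM and CMT. The other 6 enzymes stayed within a highest-to-lowest fold of 1.21 to 1.35 over IM, CM and CMT. A fold of 1.5 or more between the highest and lowest library was found for 4547 of the 13858 mRNA genes with at least 1 UQRPKM in every library, which is 32.8% of them. Without the CM library, in IM and CMT alone, none of the 7 enzymes reached this fold. For that pair, 8.81% of the 14151 genes tested were at least 1.5-fold higher in CMT and 11.9% lower. IDI1 had passed the fold only against CM, so this result followed from leaving CM out.

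The levels of the enzymes lay far apart within a library. FDFT1 (squalene synthase), which joins a pair of farnesyl diphosphate molecules into squalene and so commits the flow to sterols, was the most abundant. Its levels in the IM, CM and CMT libraries were 1068, 879 and 967 UQRPKM, from 1174, 921 and 1042 reads. FDPS (farnesyl diphosphate synthase), which makes the precursor shared by sterols, ubiquinone and prenylated proteins, was next with 704, 616 and 755 UQRPKM, from 1568, 1307 and 1648 reads. LSS (lanosterol synthase), which closes the ring system of the first sterol, followed with 499.7, 534 and 396 UQRPKM, from 2713, 2763 and 2105 reads. FDFT1 and FDPS were thus lowest in CM, and LSS was lowest in CMT. These 3 enzymes held 89.3%, 88.9% and 87.2% of the summed level of the 7 enzymes in IM, CM and CMT.

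**Figure D1:**
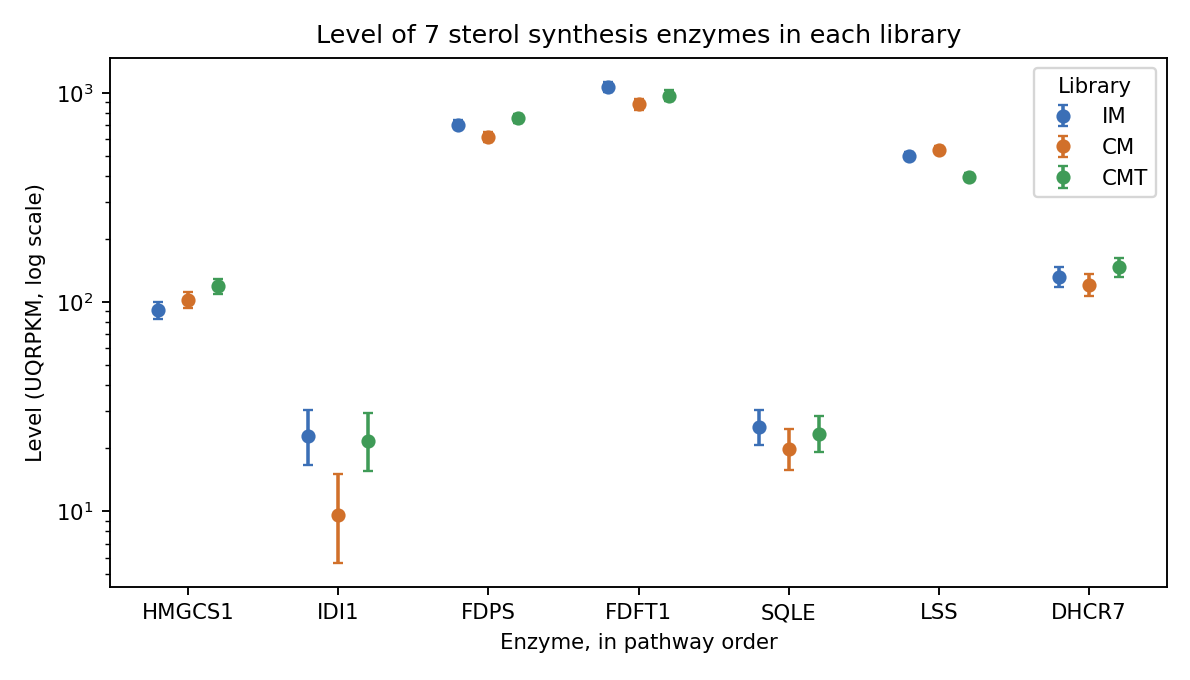
Level of each of the 7 enzymes (UQRPKM, log axis) in the IM, CM and CMT libraries, in pathway order, with 1 point per library and bars for the exact 95% counting interval. FDFT1, FDPS and LSS lie near the top in every library and IDI1 and SQLE near the bottom, and IDI1 in CM, at 9.55 UQRPKM, is the lowest point.

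DHCR7 (7-dehydrocholesterol reductase), the last step of the route through 7-dehydrocholesterol, had 132, 121 and 146 UQRPKM in IM, CM and CMT, from 315, 275 and 342 reads. HMGCS1 (the cytosolic HMG-CoA synthase), which makes HMG-CoA at the entry to the mevalonate route, had 91.2, 103 and 119, from 482, 517 and 615 reads. Their positions were close, and in CM the counting intervals of the pair overlapped.

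SQLE (squalene epoxidase), the first oxygen-dependent step and a known control point of the sterol part, had 25.3, 19.8 and 23.5 UQRPKM in IM, CM and CMT, from 111, 83 and 101 reads. IDI1 (isopentenyl diphosphate isomerase), which turns isopentenyl diphosphate into the starter unit for FDPS, had 22.8, 9.55 and 21.7, from 45, 18 and 42 reads. The intervals of SQLE and IDI1 overlapped in IM and CMT but not in CM.

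The order FDFT1, FDPS, LSS, DHCR7, HMGCS1, SQLE and IDI1 was therefore the same in all 3 libraries. The pairs just named were the only neighbours whose intervals overlapped. This order depends on the gene lengths, recovered as 738 bases for FDFT1 and 3644 for LSS, and the intervals do not cover an error in them. The span from the highest to the lowest enzyme was 46.9-fold, 92.0-fold and 44.6-fold in IM, CM and CMT. Among mRNA genes above 0, FDFT1 was above 94.5% of them in IM, and SQLE was above 37.9%. The enzymes just before and after SQLE were more abundant than SQLE itself. FDFT1 exceeded it 42.2-fold, 44.3-fold and 41.2-fold in IM, CM and CMT, and LSS exceeded it 19.8-fold, 26.9-fold and 16.9-fold. FDPS exceeded IDI1 30.9-fold, 64.5-fold and 34.8-fold.

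The comparison of CM with IM addresses castration under the HFC diet. IDI1 was the only enzyme called, with a log2 ratio of -1.25 (95% interval -2.13 to -0.44). That gives 1 of 7 enzymes called lower and 0 called higher, while 10.4% of the 14123 mRNA genes tested were called lower and 8.38% higher. IDI1 had the fewest reads of the 7, and its 18 reads in CM leave the size of the difference poorly fixed.

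FDFT1 had a log2 ratio of -0.28 in CM versus IM (-0.41 to -0.16) and FDPS one of -0.19 (-0.30 to -0.09). These differences were under 1.5-fold, but their counting intervals lay below 0. SQLE at -0.35 (-0.78 to 0.07) and DHCR7 at -0.13 (-0.37 to 0.11) had lower values in CM as well, with intervals that included 0. A difference between libraries smaller than these ranges could not be told from counting error at this depth. No change between conditions could be tested, since each group had 1 library.

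LSS and HMGCS1 had slightly higher values in CM, with log2 ratios of 0.10 (0.02 to 0.17) and 0.17 (-0.01 to 0.35). In all, 5 enzymes had lower and 2 had higher values in CM, and over all genes tested these shares were 56.8% and 43.2%. The median log2 ratio was -0.19 against -0.06 over all genes. The interval lay below 0 for 3 enzymes and above 0 for 1, against 26.6% and 15.6% of all genes tested, all as deposited. The interval of HMGCS1 joined that of LSS above 0 under each of the 3 other scalings, with ratios of 0.19 to 0.23. Those scalings raised every log2 ratio in CM versus IM by 0.02 to 0.06, so the shares as deposited do not apply to them.

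**Figure D2:**
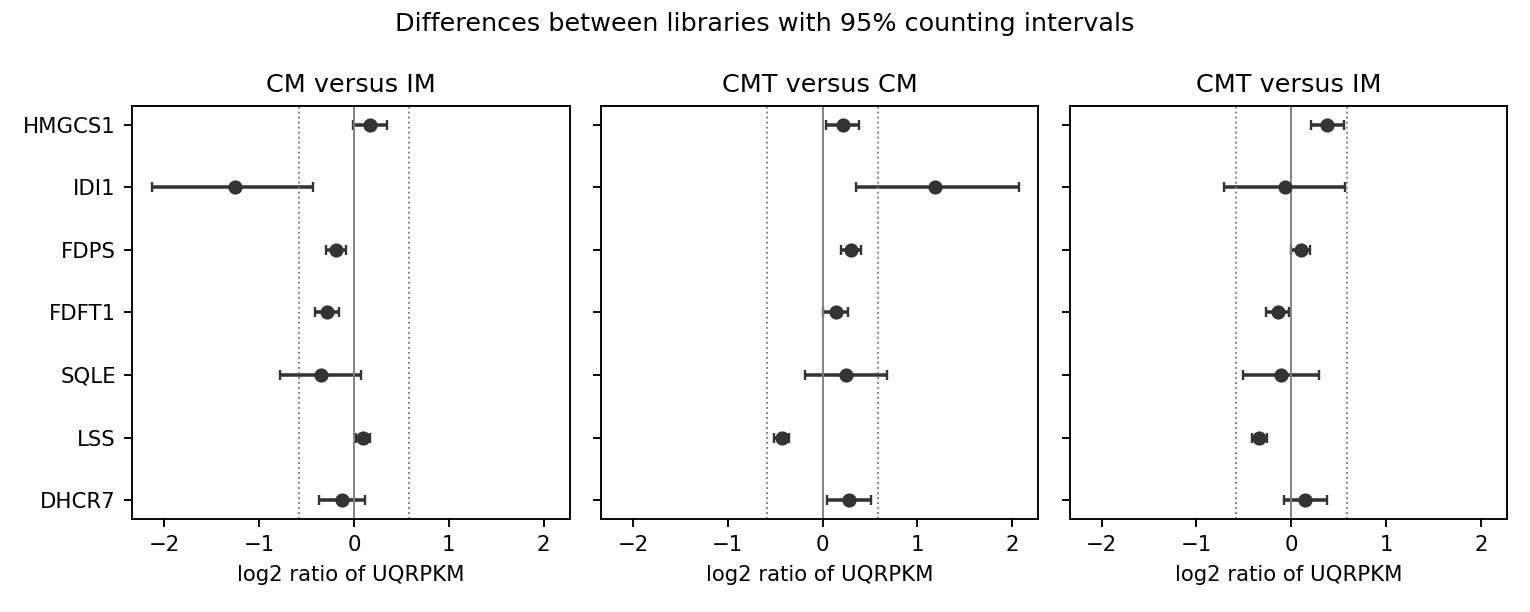
The log2 ratio of UQRPKM of each enzyme in the 3 comparisons, with bars for the exact 95% counting interval, a solid line at 0 and dotted lines at 1.5-fold. Only IDI1 passes the dotted lines, with -1.25 for CM versus IM and 1.18 for CMT versus CM, and its bars are the widest.

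The comparison of CMT with CM addresses testosterone given to castrated pigs. IDI1 was again the only enzyme called, with a log2 ratio of 1.18 (0.35 to 2.07). That is 1 of 7 enzymes called higher and 0 called lower, against 9.53% and 9.97% of the 14098 genes tested. Both comparisons use the CM library, so its value for IDI1 enters each of them.

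Most of the other enzymes had modestly higher values in CMT than in CM. FDPS had a log2 ratio of 0.29 (0.19 to 0.40), DHCR7 0.27 (0.04 to 0.51), HMGCS1 0.21 (0.04 to 0.38) and FDFT1 0.14 (0.01 to 0.27). SQLE stood at 0.24 with an interval from -0.19 to 0.68.

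LSS went the other way. Its log2 ratio in CMT versus CM was -0.43 (-0.51 to -0.35), the only value below 0 among the 7 enzymes, the other 6 being above it. Over all genes tested, 52.7% were below and 47.3% above 0. The interval lay above 0 for 5 enzymes and below 0 for 1, against 17.3% and 21.1% of all genes tested. The median over the enzymes was 0.24, and over all genes tested it was -0.02.

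CMT versus IM leaves out the CM library, and it compares castrated pigs on testosterone with intact pigs. None of the 7 enzymes was called, where 8.81% of the 14151 genes tested were called higher and 11.9% lower. The balance of these calls over all genes depended on the scaling. As deposited, 1246 genes were higher and 1690 lower, but 1503 were higher and 1331 lower when values were scaled by the median ratio over genes, and 1617 higher and 1243 lower when they were scaled by recovered reads. Under each scaling 0 of the 7 enzymes were called. HMGCS1 had the highest value, a log2 ratio of 0.38 (0.21 to 0.56), and LSS the lowest, -0.34 (-0.42 to -0.25). These enzymes sit at the entry and in the middle of the chain.

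FDFT1 had -0.14 (-0.26 to -0.02) and FDPS 0.10 (0.0005 to 0.20) in CMT versus IM. DHCR7 stood at 0.15, SQLE at -0.11 and IDI1 at -0.07, each with an interval that included 0. The signs of IDI1 and SQLE in this comparison depended on the scaling. IDI1 was at 0.01 by the median ratio, and IDI1 and SQLE were at 0.04 and 0.01 by recovered reads. As deposited, 3 enzymes had higher and 4 had lower values in CMT, where 42.0% and 58.0% of all genes tested did. The interval lay above 0 for 2 enzymes and below 0 for 2, against 15.0% and 29.5%. The interval of FDFT1 included 0 under all 3 other scalings, with a ratio of -0.10 by total UQRPKM, -0.06 by the median ratio and -0.03 by recovered reads. That of DHCR7 lay above 0 by the median ratio (0.23, from 0.0066 to 0.46) and by recovered reads (0.26, from 0.036 to 0.49). The median log2 ratio was -0.07 over the enzymes and -0.08 over all genes tested, and by recovered reads these medians were 0.04 and 0.04.

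Across the 3 libraries, CM was the lowest for 5 of the 7 enzymes (IDI1, FDPS, FDFT1, SQLE and DHCR7) and for 33.5% of the mRNA genes with at least 1 UQRPKM in every library. The HMGCS1 values were lowest in IM and the LSS values in CMT. IDI1 alone was at least 1.5-fold lower in CM than in both other libraries, as were 4.23% of those genes. The share of genes with a larger highest-to-lowest fold was 9.54% for IDI1 and 46.9% for LSS, and it ran from 53.6% to 69.5% for the other 5. The levels of the 7 enzymes summed to 2542, 2281 and 2428 UQRPKM in IM, CM and CMT.

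**Figure D3:**
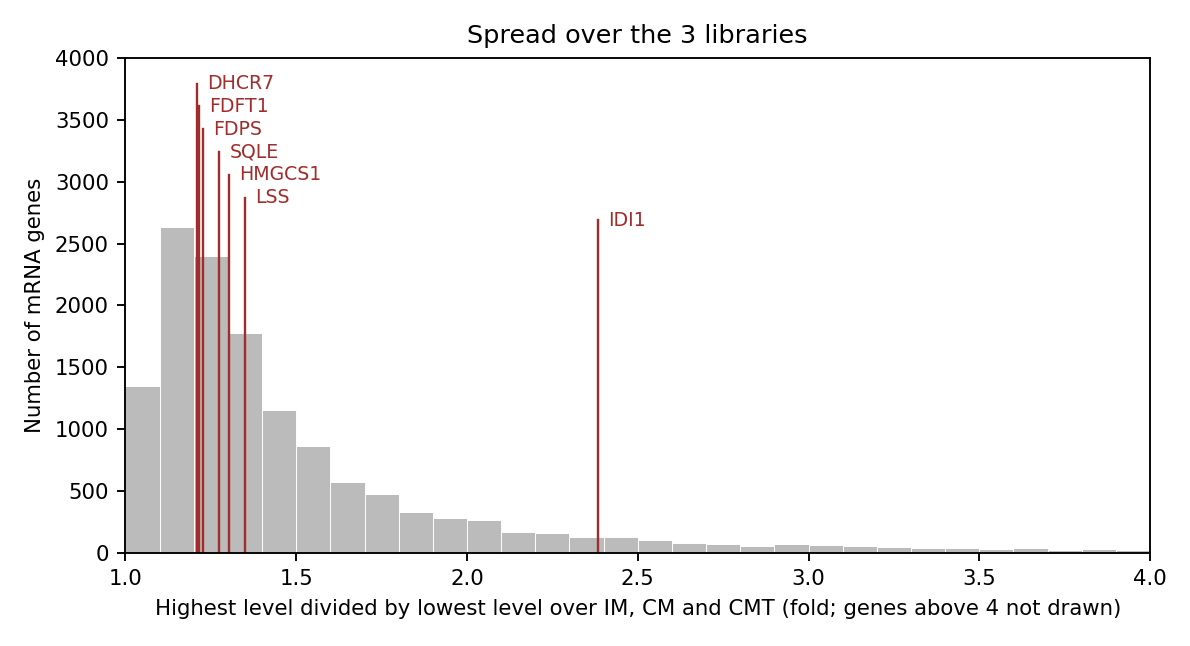
Grey bars count the mRNA genes with at least 1 UQRPKM in every library by their highest level divided by their lowest over IM, CM and CMT, and red lines mark the 7 enzymes. The lines of 6 enzymes lie between 1.21 and 1.35, in the bulk of the genes, and that of IDI1 lies at 2.38.

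The rest of the chain was followed through a list of 14 other enzymes, of which 12 were measured. In each comparison and direction, 8.38% to 11.9% of all genes tested were called. Only 1 of the 12 was called in any comparison, and it was lower in CMT versus IM, as were 11.9% of all genes tested. That gene was SC5D, the sterol desaturase just before DHCR7, which had 176, 121 and 105 UQRPKM in the order IM, CM and CMT, with a log2 ratio of -0.75 (-0.95 to -0.55) in CMT versus IM. Its value in CM versus IM was -0.55 (-0.74 to -0.36), short of the threshold. The median of the list was -0.13 for CM versus IM, -0.10 for CMT versus CM and -0.08 for CMT versus IM. Over all genes tested these medians were -0.06, -0.02 and -0.08.

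Some of these enzymes had CM as their lowest library. ACAT2, the cytosolic thiolase that feeds HMGCS1, had 472, 408 and 469 UQRPKM in IM, CM and CMT. CYP51, which removes a methyl group from lanosterol, had 230, 192 and 231, and MVK, the mevalonate kinase, had 49.5, 40.2 and 56.6. NSDHL, of the demethylation steps that follow, had 234, 200 and 283. For ACAT2 and CYP51 the intervals excluded 0 on both sides of CM, against IM and against CMT, whereas those of MVK and NSDHL did so against CMT alone.

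Others were lowest in CMT, like LSS. EBP, the sterol isomerase, had 366, 375 and 270.1 UQRPKM, with a log2 ratio of -0.47 (-0.65 to -0.30) in CMT versus CM. PMVK, the phosphomevalonate kinase, had 306, 319 and 256, and HSD17B7 had 67.8, 74.5 and 56.2. MSMO1, the sterol methyl oxidase, was highest in CM with 98.0, 128 and 97.8. TM7SF2 had nearly the same level in CM and CMT, with 64.6, 51.9 and 52.1. Neighbouring steps thus differed in which library was highest.

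**Figure D4:**
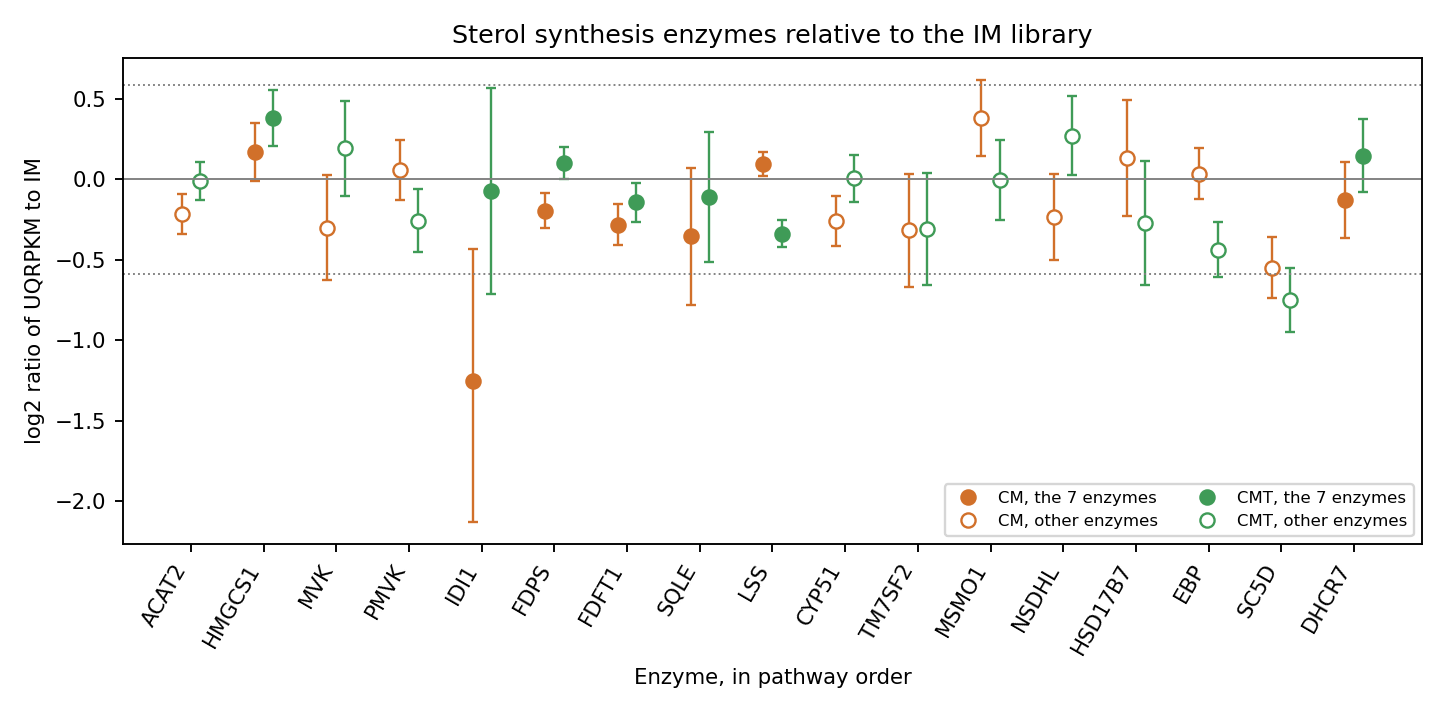
The log2 ratio to IM in CM and CMT for the 7 enzymes (filled points) and 10 other enzymes of the chain (open points), in pathway order, with exact 95% counting intervals and dotted lines at 1.5-fold. Most points lie within the dotted lines, and those outside are IDI1 in CM at -1.25 and SC5D in CMT at -0.75.

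Genes that sense sterol and control the chain differed in which library was highest. SCAP, the escort of the SREBP factors, had 259, 227 and 209.9 UQRPKM in IM, CM and CMT, and INSIG1, which holds SCAP back when sterol is plentiful and is itself an SREBP target, had 229, 253 and 193. MYLIP, the ubiquitin ligase that removes lipoprotein receptors and is a target of the sterol-activated LXR factors, had 214, 237 and 337. It was called higher in CMT versus IM with a log2 ratio of 0.66 (0.54 to 0.78). STARD4, a carrier of sterol in the cytosol, was called higher in CM than in each other library, but from 3, 14 and 2 reads only. Its log2 ratio was 2.29 (0.45 to 4.73) in CM versus IM and -2.85 (-6.03 to -0.73) in CMT versus CM. Of the 10 measured genes of this list, SREBF1 and SREBF2 were listed at 0 in every library. Genes that all cells use can also be listed at 0 in these values, as was FNTA, a subunit of the protein prenyl transferases, so the 0 was not read as absence of the SREBP transcripts.

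The genes of sterol uptake, storage and oxysterol handling gave 1 call over the 3 comparisons among 10 measured. Over all genes tested, 8.38% to 11.9% were called in each comparison and direction. LRP1, a large endocytic receptor, was lower in CM versus IM with a log2 ratio of -0.61 (-0.64 to -0.57). This lay close to the threshold, and LRP1 was not called at -0.55 by the median ratio or by recovered reads. Under those scalings SOAT2, an enzyme that esterifies cholesterol, was called higher instead, at 0.62 and 0.61 against 0.55 as deposited. It had only 10 reads in IM and 14 in CM, and its interval as deposited, -0.72 to 1.89, included 0. SCARB1, the receptor for HDL, had 2024, 1636 and 1754 UQRPKM in IM, CM and CMT. In the branches that leave the mevalonate route for other products, 10 genes were tested and 0 were called in any of the 3 comparisons. The shares over all genes given above, 8.38% to 11.9%, apply here too. GGPS1, which extends the FDPS product, had 107, 145 and 121 UQRPKM, and COQ2 of ubiquinone synthesis had 177.8, 240.2 and 179.7.

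Fatty acid synthesis is also driven by SREBP factors, and 8 of its genes were measured. In CMT versus CM all 8 had lower values and 4 were called lower, with a median log2 ratio of -0.54. Over all genes tested, 52.7% had lower values and 9.97% were called lower, with a median of -0.02. SCD, the stearoyl-CoA desaturase, had 7188, 9909 and 3308 UQRPKM in IM, CM and CMT, and ACLY, which supplies cytosolic acetyl-CoA to both pathways, had 6272, 3879 and 2007. ACACA and FADS2 were the other called genes, at -0.61 and -0.68. ACACA was not called when values were scaled by total UQRPKM, at -0.58, or by recovered reads, at -0.55, which left 3 called. Over the same comparison 6 of the 7 sterol enzymes had higher values. The 12 other sterol enzymes did not share this, with 6 higher, 6 lower and a median of -0.10. Of the 6 adipocyte genes, 5 had lower values in CMT than in CM, like the fatty acid synthesis genes. The difference between these lists was not tested.

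By the distance between the log2 ratios of CM versus IM and CMT versus CM, the genes most like the median of the 7 enzymes were FYN, LOC102158248, LOC100739159, DNPEP and RAB28. Their distances from the median pair of log2 ratios ran from 0.0071 for FYN to 0.015 for RAB28, over the 3 libraries. With so few libraries such likeness is common, and 288 of the 7393 genes with at least 50 UQRPKM everywhere lay within 0.1.

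The tissue label was checked with marker lists. Adipocyte genes were abundant in every library, with ADIPOQ at 74928, 69193 and 63873 UQRPKM in IM, CM and CMT. The summed level of the 6 adipocyte genes measured was 131389, 122400 and 105490. The sterol enzymes and the adipocyte genes come from the same bulk RNA, in which fewer cells of a type and less RNA per cell cannot be told apart.

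Markers of other tissues differed sharply between libraries. Of the 11 hepatocyte genes measured, the defining marker ALB had 10, 10612 and 15 reads in IM, CM and CMT. The summed level of this list was 2557, 9447 and 1737 UQRPKM. In IM and CMT nearly all of it was APOA1, which was not higher in CM, with 2539, 2339 and 1714 UQRPKM. All 11 genes were above 0 in CM, while 5 were at 0 in IM and 4 in CMT. Liver also makes cholesterol, and the part of these transcripts in the CM values of the 7 enzymes was not tested.

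The 9 measured skeletal muscle genes summed to 82.3, 68.3 and 6130 UQRPKM in IM, CM and CMT, with ACTA1 at 130, 99 and 9176 reads and CKM at 0 in all 3. The 4 mesothelial genes summed to 73.5, 138 and 367, and KRT14 of keratinocytes had 123, 0 and 3 reads. The 5 keratinocyte genes summed to 182, 29.7 and 29.6 UQRPKM. Its 4 keratins were highest in IM, while DSP, a desmosome gene of many epithelia, was lowest there with 2.73, 9.75 and 11.3 UQRPKM from 39, 133 and 158 reads. The 7 measured macrophage genes summed to 953, 1090 and 879.5 UQRPKM, with CD163 at 0 in all 3. Most of that sum was CD14, CSF1R and AIF1, and none of these was called. Their log2 ratios were 0.02, -0.22 and 0.47 in CM versus IM, so CSF1R was lower in CM. In CMT versus CM they were -0.22, -0.15 and -0.10. The less abundant EMR1, MARCO and CD68 were called higher in CM versus IM, with log2 ratios of 1.04, 1.17 and 1.31, and lower in CMT versus CM, with -1.61, -1.82 and -0.95. The list median was 0.76 and -0.58 in these comparisons, and the library with the higher values of these 3 genes, CM, was also the one in which IDI1 was lowest. The steroid-producing cells of the adrenal gland use much cholesterol. Among their 7 measured genes, CYP11A1, CYP17A1 and NR5A1 were at 0 in every library and CYP21A2 had 1 read in CMT, while STAR had 103, 88 and 110 reads. The summed level of that list was 366, 620 and 399 UQRPKM, most of it from HSD3B1. The part of muscle, mesothelial, skin and macrophage RNA in the values of the enzymes was not tested.

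**Figure D5:**
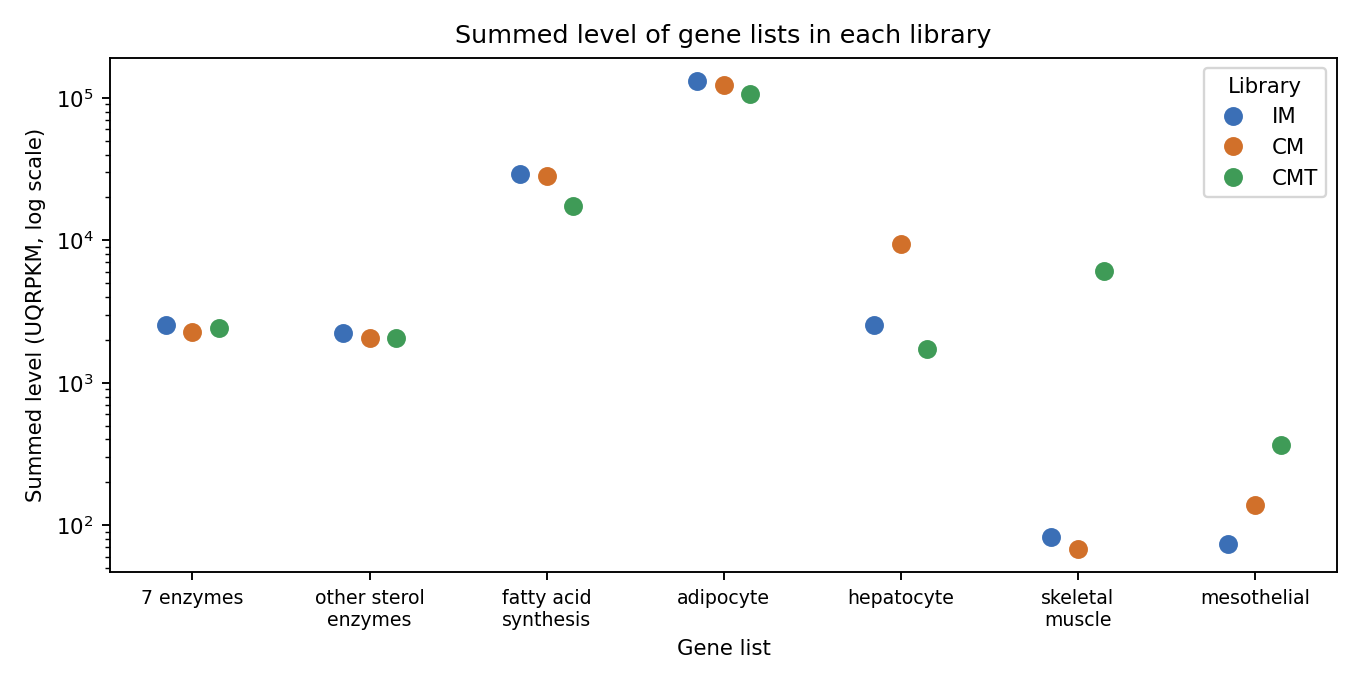
Summed level (UQRPKM, log axis) of each gene list in the IM, CM and CMT libraries, with 1 point per library. The 7 enzymes sum to 2542, 2281 and 2428, while the hepatocyte list reaches 9447 in CM and the skeletal muscle list 6130 in CMT.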

How the data were processed

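RNA-Seq of retroperitoneal fat gave 1 library each for IM, CM and CMT, grouped by the sample labels. The authors removed adaptors and poor reads, aligned the rest by MapSplice against Sscrofa 10.2 and deposited RPKM values of the UQRPKM kind for 34570 genes. The read counter, its annotation and its treatment of multiply mapped reads are not given in the sources used here.

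Reads were recovered as the smallest whole numbers at the shortest length up to 120000 bases that fitted all 3 libraries, with upper quartiles of 149, 142 and 146. This worked for all 20838 genes above 0, and reads that share a common factor are underestimated, which widens intervals. Log2 ratios of UQRPKM without a pseudocount were given with exact Clopper-Pearson 95% intervals, and levels with exact Poisson intervals. With 1 library per group no test between groups was possible. The scripts were tested on simulated data.

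Symbols absent from the values were matched as LOC and gene ID in the RefSeq table of Sscrofa 11.1, whose coordinates and sequences were not used. The text names the 7 enzymes, examples of each gene list, and the 5 genes nearest in both log2 ratios among those with at least 50 UQRPKM in every library. Of the 12 measured enzymes of the pathway list, 10 are drawn, and the others are counted but not reported by name here. Members and lists were chosen with earlier results of these data known. Alternatives covered scaling, a pseudocount of 1, the fold threshold, the filter on low values and an exact binomial test on reads. Python 3.11.15 and scipy 1.17.1 were used.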

Additional observations from a re-analysis of the deposited data

How the results depend on the processing

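No paired analysis was possible because each group is 1 library, and for the same reason no replicate could be left out within a group. Of the 84 recomputed log2 ratios of the 7 enzymes, 81 stayed within the counting interval as deposited. The other 3 were in CMT versus IM, where LSS came to -0.25 by the median ratio and -0.22 by recovered reads, and FDPS to 0.21 by recovered reads. Scaling by recovered reads raised all log2 ratios in CMT versus IM by 0.11. The median over the enzymes in CMT versus IM, -0.07 as deposited, was 0.013 by the median ratio and 0.043 by recovered reads. The latter left 5 enzymes with higher and 2 with lower values there, against 3 and 4 as deposited. Over all genes tested these shares were 53.8% and 46.2% by recovered reads, against 42.0% and 58.0% as deposited. The count of enzymes with a 1.5-fold highest-to-lowest difference was 1, where 32.8% of genes with at least 1 UQRPKM in every library had one. The versions without 1 library each gave 0 to 1, with 0 when CM was left out. That left CMT versus IM, where 8.81% of all genes tested were called higher and 11.9% lower.

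A minimum of 10 UQRPKM in both libraries left 0 enzymes called in either comparison with CM, because IDI1 had 9.55 UQRPKM in CM. At a looser fold of 5 to 4, 2 enzymes were lower for CM versus IM. For CMT versus CM 1 was higher and 1 lower, and in CMT versus IM 1 was higher and 1 lower. Of the 14123 mRNA genes tested for CM versus IM, 2359 were higher and 3322 lower at that fold. Of the 14098 tested for CMT versus CM, 2596 were higher and 2819 lower. Of the 14151 tested for CMT versus IM, 2420 were higher and 3669 lower. At that fold the other sterol enzymes gave 1 higher and 1 lower for CM versus IM, and 2 higher and 3 lower for CMT versus CM. For CMT versus IM 2 were lower at that fold and 0 at 2-fold.

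Scaling by the median ratio or by recovered reads turned the excess of lower over higher calls among all mRNA genes. For CM versus IM, 1184 were higher and 1473 lower as deposited, 1355 and 1279 by the median ratio, and 1342 and 1282 by recovered reads. For CMT versus CM these were 1343 and 1406, 1409 and 1350, and 1543 and 1236, and by total UQRPKM 1408 and 1345. For CMT versus IM, higher calls were 42.4% of all calls as deposited, 53.0% by the median ratio and 56.5% by recovered reads.

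Counts over all mRNA genes as deposited, higher and lower, were 2359 and 3322 for CM versus IM at the fold of 5 to 4, 2596 and 2819 for CMT versus CM, and 2420 and 3669 for CMT versus IM. In the same order they were 545 and 594, 596 and 629, and 560 and 602 at 2-fold. With the exact binomial test added they were 601 and 787, 685 and 761, and 624 and 1029, and with a minimum of 10 UQRPKM they were 490 and 691, 566 and 669, and 529 and 894. That test compares libraries, not conditions.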
